A study of Mus musculus with 6 samples.

Results

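The ABCA family of lipid transporters was followed through 3 wild-type (WT) and 3 Abca4-/- (Abca4KO) libraries of the mouse retinal pigment epithelium, or RPE, the cell layer that supports the photoreceptors. The members were 9 genes taken by name from the deposited table: Abca1, Abca2, Abca3, Abca4, Abca5, Abca7, Abca8a, Abca8b and Abca9. The table held 16 ABCA genes among 54532 genes in all, and all 9 members were among the 17340 genes with enough counts to be tested. RNA was collected from 3 mice of each genotype 5 h after light onset, so the libraries are separate mice and the only comparison is between the genotypes. Jackson Labs supplied both lines, 129S1/SvlmJ as WT and Abca4tm1Ght/J as Abca4KO. Both groups carried the Rpe65 Leu450 background and were kept in cyclic light on a standard diet alike. The Abca4 deletion and the mouse line changed together and cannot be told apart, and the sources used here give neither age nor sex.

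ABCA proteins are large membrane transporters that use ATP to move lipids from one face of a membrane to the other, or out of the cell. ABCA4 works in the disc membranes of rod and cone outer segments, where it clears retinaldehyde bound to phosphatidylethanolamine, and it has also been found in the RPE. Loss of ABCA4 causes Stargardt macular degeneration, in which bisretinoids of lipofuscin build up in the RPE. ABCA1 passes cholesterol and phospholipid to apolipoproteins and is a classical target of the liver X receptors (LXR). ABCA2 and ABCA5 act in lysosomes and late endosomes, ABCA3 loads phospholipid into the lamellar bodies of lung cells, and ABCA7 takes part in phospholipid transport and phagocytosis. Abca8a, Abca8b and Abca9 encode closely related and less studied transporters.

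The windows of 250 bases before the gene start as RefSeq places it are shown for the 2 members on which the results turn: Abca4, the gene that was deleted, and Abca1, the sterol-regulated member. The Abca4tm1Ght allele is known for replacing the promoter and the first exon of Abca4, so the Abca4 window is a stretch that WT mice carry. Sequences are from RefSeq on GRCm38.p6, which had a window for 9 of the 9 members, and run 5′ to 3′ on the gene's strand. Capitals mark the motifs found, and the positions are chr3:122044210-122044459 (+) for Abca4 and chr4:53159896-53160145 (-) for Abca1. Distances are counted from the RefSeq start, the base after the end of the window. For Abca4 that start lies inside the gene of the deposited table, which begins at 122044443, so the last bases of the Abca4 window belong to that gene model.
Abca4: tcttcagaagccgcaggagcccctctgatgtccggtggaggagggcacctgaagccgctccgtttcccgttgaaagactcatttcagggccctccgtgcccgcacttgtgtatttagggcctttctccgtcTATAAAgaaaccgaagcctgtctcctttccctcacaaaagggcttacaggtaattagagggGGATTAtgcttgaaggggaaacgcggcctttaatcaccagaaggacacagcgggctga
Abca1: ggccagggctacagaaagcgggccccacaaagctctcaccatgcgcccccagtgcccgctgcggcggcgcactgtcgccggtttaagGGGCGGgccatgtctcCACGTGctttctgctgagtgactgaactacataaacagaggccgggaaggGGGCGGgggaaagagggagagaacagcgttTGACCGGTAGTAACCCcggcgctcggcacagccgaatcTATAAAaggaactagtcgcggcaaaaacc
The motifs searched, on both strands and with overlaps allowed, were TATAAA (the TATA box), TAATCC (bound by the homeodomain proteins OTX2 and CRX), CACGTG (an E-box), GGGCGG (the GC box) and the nuclear receptor repeat DR4, the kind of element bound by LXR with RXR. The Abca4 window held TATAAA at 119 to 114 bases before the start and TAATCC, on the reverse strand and so printed as GGATTA, at 58 to 53 bases before it. The Abca1 window held TATAAA at 29 to 24 bases, CACGTG at 147 to 142 bases, GGGCGG at 163 to 158 and at 97 to 92 bases, and a DR4 on the reverse strand at 67 to 52 bases before the start. Of 32851 windows of the same length, 12.4% held TATAAA, 6.25% TAATCC, 6.02% CACGTG, 32.7% GGGCGG and 0.192% a DR4. Of the other members, Abca9 also held TAATCC, Abca8a held CACGTG, and Abca3, Abca5, Abca7 and Abca8b held GGGCGG, while these letters were not in the Abca2 window. A match describes the letters only.

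Abca4 (ENSMUSG00000028125) lies on the plus strand of chromosome 3 from 122044443 to 122180123 (mm10), and its principal transcript has 50 exons. It held 955, 932 and 968 CPM (the gene's counts scaled to a common library size) in WT 1, 2 and 3, and 32.6, 39.1 and 36.8 CPM in Abca4KO 1, 2 and 3. Every WT library stood far above every Abca4KO library, in keeping with the genotype labels of all 6. The means were 952 ± 18.1 CPM (SD, n = 3) in WT and 36.2 ± 3.31 CPM (SD, n = 3) in Abca4KO, a 26.3-fold decrease. The log2 fold change was -4.72 (SE 0.10, 95% interval -4.96 to -4.48), with an adjusted p of 4.48e-06 by edgeR's quasi-likelihood test.

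The Abca4 that remained in Abca4KO libraries was well above the counting floor. The 3 Abca4KO libraries still held 642, 758 and 633 Abca4 reads, against 18248, 17364 and 17779 in WT, which put the Abca4KO mean at 3.80% of the WT mean. The floor of 3 counts was at most 0.174 CPM, and that floor covers counting error only. Reads were counted over the whole gene, so the table does not show which exons the remaining reads came from. Pseudogenes on the opposite strand of Abca4, Gm43157 and Gm43158, had 3 and 10 counts beside the 55424 counts of Abca4 over all libraries.

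Photoreceptor RNA was present in every library and varied more than Abca4 within each genotype. The summed level of 28 rod marker genes was 4067, 2355 and 3936 CPM in WT 1, 2 and 3, and 6250, 2817 and 3074 CPM in Abca4KO 1, 2 and 3. In WT the highest rod sum was 1.73 times the lowest, whereas the highest Abca4 level was 1.04 times the lowest. In Abca4KO these ratios were 2.22 and 1.20, and Abca4KO 1 had the highest rod sum and the lowest Abca4 level. WT 2 had both the lowest rod sum and the lowest Abca4 level of the WT libraries. With the mean log2 level of the rod markers as a covariate, the log2 fold change of Abca4 was -4.70, against -4.72 without it. Beyond this fit, the part of rods in the Abca4 level was not tested. No rod marker was at 0 in any library. The log2 fold change was above 0 for 25 of the 28 rod markers (median 0.42), and edgeR, DESeq2 and limma-voom each called 0, with 0 at an unadjusted p under 0.05. In bulk RNA, fewer cells of a type and less RNA per cell cannot be told apart. Rpe65, which defines the RPE, was at 4945.5 ± 633 CPM in WT and 4715 ± 252 CPM in Abca4KO.

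**Figure D1:**
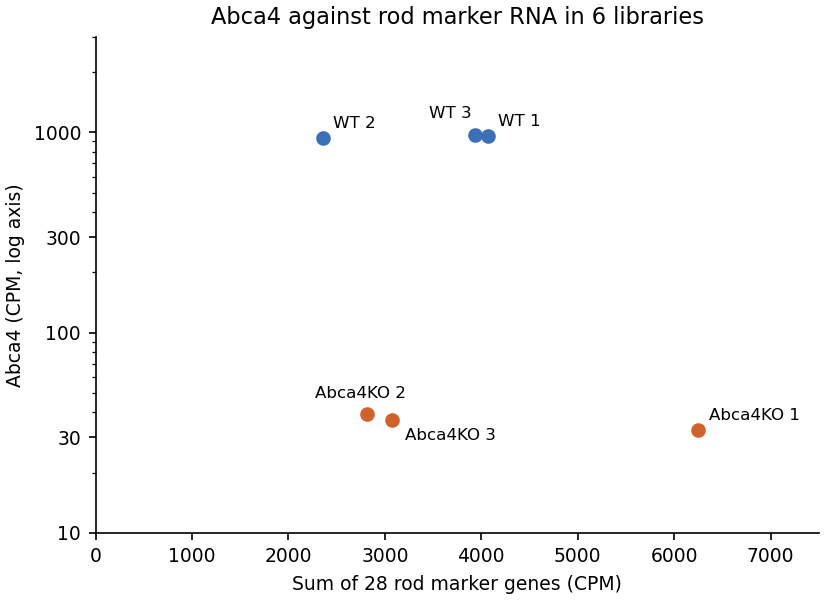
Abca4 level (CPM, log axis) against the summed level of 28 rod marker genes (CPM) in each of the 6 libraries, 1 point per mouse, blue for WT and orange for Abca4KO. The WT points lie between 932 and 968 CPM of Abca4 while their rod sums run from 2355 to 4067 CPM, and the Abca4KO points lie between 32.6 and 39.1 CPM over rod sums from 2817 to 6250 CPM.

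The members covered a wide range of levels when compared per length. On the scale of RPKM (CPM per kilobase of the deposited gene length), Abca4 was the highest member in WT at 79.2 ± 1.50 RPKM (SD, n = 3), 3.08 times the next. Abca2 followed at 25.7 ± 1.26 RPKM, Abca3 at 21.8 ± 0.847, Abca1 at 18.2 ± 0.565, Abca5 at 14.5 ± 0.730 and Abca7 at 8.23 ± 2.00 RPKM. Neighbours in this order did not overlap between libraries down to Abca7. Abca8a at 2.41 ± 0.404 RPKM, Abca9 at 2.31 ± 0.602 and Abca8b at 1.81 ± 0.247 RPKM formed a low group, in which each neighbouring pair overlapped. By level per length, Abca4 stood in place 507 of the 17340 tested genes in WT, above 97.1% of them, and in place 9878 in Abca4KO, above 43.0%. The other members moved far less, all downwards except Abca8a (10832 in WT and 10698 in Abca4KO). Abca1 went from place 2665 to 3245, Abca2 from 1864 to 2086 and Abca8b from 11826 to 12584.

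In Abca4KO the order of the other members was the same as in WT, with Abca4 in the sixth place. The levels were 23.1 ± 0.149 RPKM for Abca2, 18.5 ± 0.814 for Abca3, 14.9 ± 0.412 for Abca1, 12.4 ± 0.923 for Abca5 and 7.94 ± 0.137 for Abca7. Abca4 came next at 3.01 ± 0.276 RPKM and overlapped with Abca8a at 2.44 ± 0.463 RPKM, which in turn overlapped with Abca9 at 2.17 ± 0.298 RPKM, while Abca8b was apart from them at 1.37 ± 0.116 RPKM. The order depends on the length used. With the length of the principal transcript alone, WT Abca4 was at 131.05, Abca3 at 29.6 and Abca2 at 26.7, and Abca5 at 20.1 stood above Abca1 at 18.4 RPKM.

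**Figure D2:**
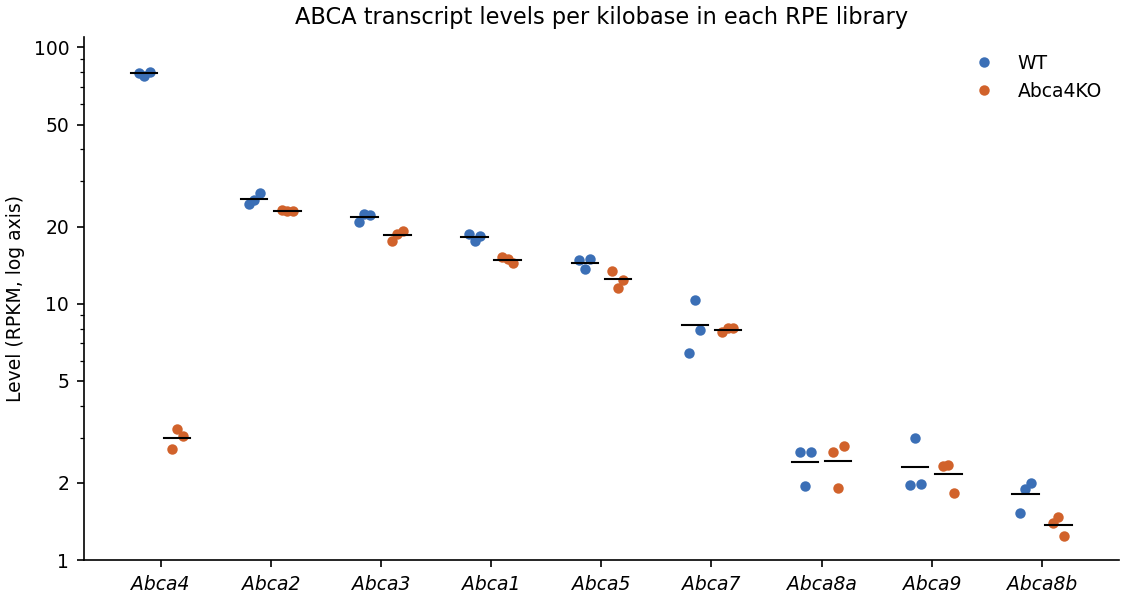
Level of each ABCA member (RPKM, log axis) in each library, blue for WT and orange for Abca4KO, with a black bar at the mean of 3 libraries. Abca4 is the highest member in WT, near 79.2 RPKM, and lies with Abca8a, near 3.01 RPKM, in Abca4KO, while the other members keep their order.

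The summed level of the family was lower in every Abca4KO library. All 9 members together were at 174.1 ± 3.30 RPKM in WT and 85.8 ± 0.426 RPKM in Abca4KO. Abca4 made up 45.5% ± 0.950 (SD, n = 3) of that sum in WT and 3.51% ± 0.338 (SD, n = 3) in Abca4KO. The other 8 members summed to 91.5, 96.3 and 97.04 RPKM in WT and to 83.5, 82.1 and 82.8 RPKM in Abca4KO. The sum of the other 8 was thus lower in each Abca4KO library than in any WT library, and no member was at a higher level in all Abca4KO libraries.

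Of the 9 members, 1 passed the adjusted threshold, Abca4 itself, where 0.0461% of all tested genes (8 genes) passed. With 1 library left out, between 3 and 11 genes passed, with 4 without WT 1 and 3 without Abca4KO 2 or Abca4KO 3, and Abca4 was among them each time. Of the other 8 members, edgeR, DESeq2 and limma-voom called 0, and their adjusted p-values in edgeR ran from 0.526 to 0.989. At an unadjusted p under 0.05, edgeR gave 4 of the 8, where 7.02% of all tested genes passed. DESeq2 and limma-voom each gave 3 of the 8, where 6.42% and 16.9% of all tested genes passed. The edgeR count was 2 without WT 3, without Abca4KO 2 or without Abca4KO 3, where 6.59%, 4.53% and 4.26% of all tested genes passed. In 5 of the 8 (Abca1, Abca2, Abca3, Abca5 and Abca8b) every Abca4KO library was below every WT library, against 6.85% of all tested genes, and in 0 of the 8 every Abca4KO library was above, against 5.93%. The median log2 fold change of the 8 was -0.19, and 7 of the 8 values were negative, against a median of -0.01 and 52.2% negative over all tested genes.

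**Figure D3:**
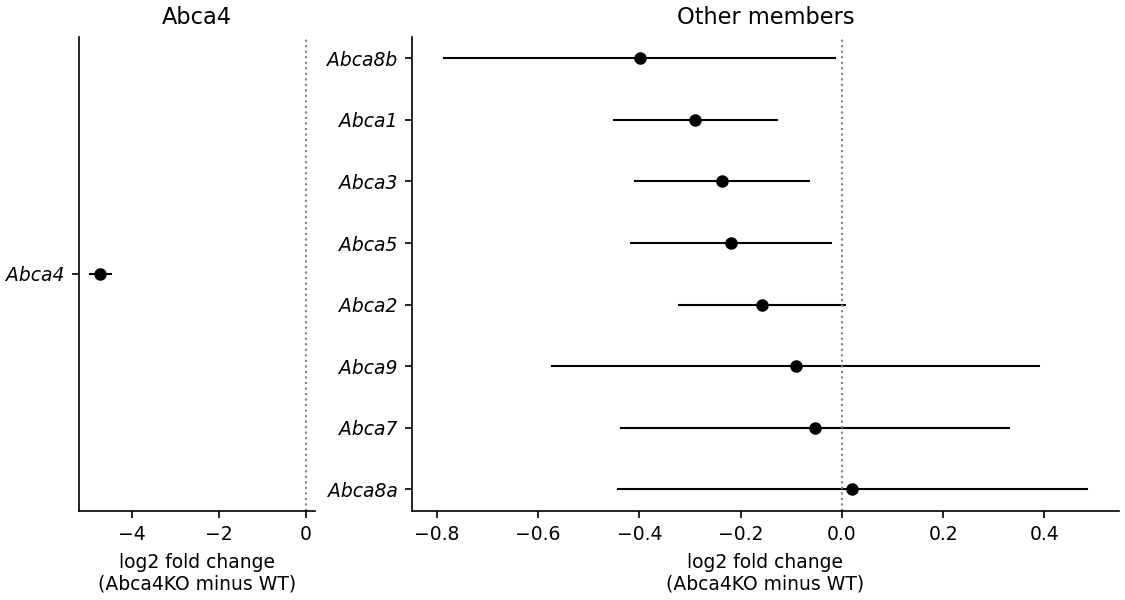
Log2 fold change (Abca4KO minus WT) of Abca4 on the left and of the other 8 members on the right, on separate scales, with points for the estimate and lines for the 95% interval from edgeR's quasi-likelihood fit. Abca4 lies at -4.72, and the other members lie between -0.40 for Abca8b and 0.02 for Abca8a.

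Abca1 (ENSMUSG00000015243, chromosome 4 from 53030787 to 53159895, minus strand, 50 exons), the efflux transporter, held 193, 182 and 190.04 CPM in WT and 158, 155 and 149 CPM in Abca4KO. All Abca4KO libraries were lower than all WT libraries, and the libraries of each genotype lay close together. The means were 188 ± 5.86 and 154 ± 4.27 CPM (SD, n = 3), with a log2 fold change of -0.29 (SE 0.07, 95% interval -0.45 to -0.13), or 18.2% lower. The unadjusted p was 0.0035 and the adjusted p 0.526 by edgeR, so the difference did not pass the threshold over all genes.

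Abca2 and Abca5 act in the endolysosomal system. Abca2 (ENSMUSG00000026944, chromosome 2 from 25428703 to 25448540, plus strand, 48 exons) held 205, 212 and 226 CPM in WT and 194, 192 and 191 CPM in Abca4KO. The groups did not overlap, and the Abca4KO libraries were the more alike. Its log2 fold change was -0.16 (SE 0.07, 95% interval -0.32 to 0.01, adjusted p 0.714 by edgeR). Abca5 (ENSMUSG00000018800, chromosome 11 from 110269369 to 110337716, minus strand, 39 exons) held 169.8, 156 and 171 CPM in WT and 153, 132 and 142 CPM in Abca4KO. The highest Abca4KO library was just below the lowest WT library. Its log2 fold change was -0.22 (SE 0.08, 95% interval -0.42 to -0.02, adjusted p 0.700 by edgeR).

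Abca3 (ENSMUSG00000024130, chromosome 17 from 24351950 to 24410201, plus strand, 33 exons), the phospholipid transporter of lamellar bodies, held 183, 197 and 195 CPM in WT and 155, 165 and 168 CPM in Abca4KO. The groups did not overlap. Its log2 fold change was -0.24 (SE 0.07, 95% interval -0.41 to -0.07), or 15.1% lower, with an unadjusted p of 0.0134 and an adjusted p of 0.616 by edgeR. Abca3 overlaps D330041H03Rik on the other strand, a transcript with 555 counts beside the 19903 of Abca3 (2.79%), and the sources used here do not say whether the authors' counting used strand. Of 10 surfactant and lamellar body genes, 4 passed the filter on low counts. Lpcat1, a phospholipid-remodelling enzyme, was at 83.9 ± 4.40 and 88.1 ± 8.02 CPM (adjusted p 0.909 by edgeR). Slc34a2 and Napsa, the 2 others of this list with the smallest p-values, were at 2.59 ± 2.06 against 0.645 ± 0.923 CPM and at 8.70 ± 7.79 against 5.21 ± 2.44 CPM, with adjusted p-values of 0.810 and 0.861 by edgeR.

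Abca7 (ENSMUSG00000035722, chromosome 10 from 79996494 to 80015572, plus strand, 47 exons), linked to phagocytosis, held 43.2, 70.01 and 53.5 CPM in WT and 52.5, 54.1 and 54.1 CPM in Abca4KO. The Abca4KO libraries lay inside the WT range, which WT 2 set at the top. The log2 fold change was -0.05 (SE 0.16, 95% interval -0.44 to 0.33, adjusted p 0.971 by edgeR), and without WT 2 it was 0.15. WT 2 also stood apart in the summed level of 14 interferon-regulated genes, 1967 CPM against 200 to 283 CPM in the other 5 libraries, and in the leukocyte gene Ptprc, 279.6 CPM against 38.4 to 98.7 CPM. Of the interferon genes 13 of 14 had negative fold changes. Macrophage markers had 10 of 15 positive and summed to 2073 to 3685 CPM in WT, with WT 2 the highest, and to 3184 to 5479 CPM in Abca4KO. Their part in the Abca7 level was not tested.

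The remaining members are encoded side by side with Abca5 and Abca6 on the minus strand of chromosome 11. Abca8b (ENSMUSG00000020620, from 109932190 to 109995845), Abca8a (ENSMUSG00000041828, from 110025634 to 110095978) and Abca9 (ENSMUSG00000041797, from 110100749 to 110168196) each have 39 exons. Gaps of 29788 bases (Abca8b to Abca8a), 4770 bases (Abca8a to Abca9), 8623 bases (Abca9 to Abca6) and 17592 bases (Abca6 to Abca5) separate them. Their transcripts are related but not near-identical: Abca8a and Abca8b matched at 78.4% identity over 3725 bases, and Abca8a and Abca9 at 76.6%. Abca5 in WT was at 14.5 RPKM and its 3 neighbouring members at 2.41 RPKM or less.

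Abca8b held 11.4, 14.1 and 14.9 CPM in WT and 10.4, 10.9 and 9.24 CPM in Abca4KO, without overlap. Its log2 fold change was -0.40 (SE 0.16, 95% interval -0.79 to -0.01, unadjusted p 0.0442, adjusted p 0.706 by edgeR). Abca8b had the most negative estimate among the 8 members and a wide interval. Abca8a held 16.5, 12.2 and 16.6 CPM in WT and 16.5, 12.02 and 17.4 CPM in Abca4KO, and the groups overlapped. Its log2 fold change was 0.02 (SE 0.20, 95% interval -0.44 to 0.48, adjusted p 0.989 by edgeR). Abca9 held 15.8, 24.2 and 15.9 CPM in WT and 18.7, 19.0 and 14.7 CPM in Abca4KO, with WT 2 the highest. Its log2 fold change was -0.09 (SE 0.21, 95% interval -0.57 to 0.39, adjusted p 0.956 by edgeR), and without WT 2 it was 0.14, while Abca8a without WT 2 was -0.11. Abca8a was lowest in WT 2 and in Abca4KO 2, the libraries with the lowest rod sum of each genotype, and whether these are linked was not tested.

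**Figure D4:**
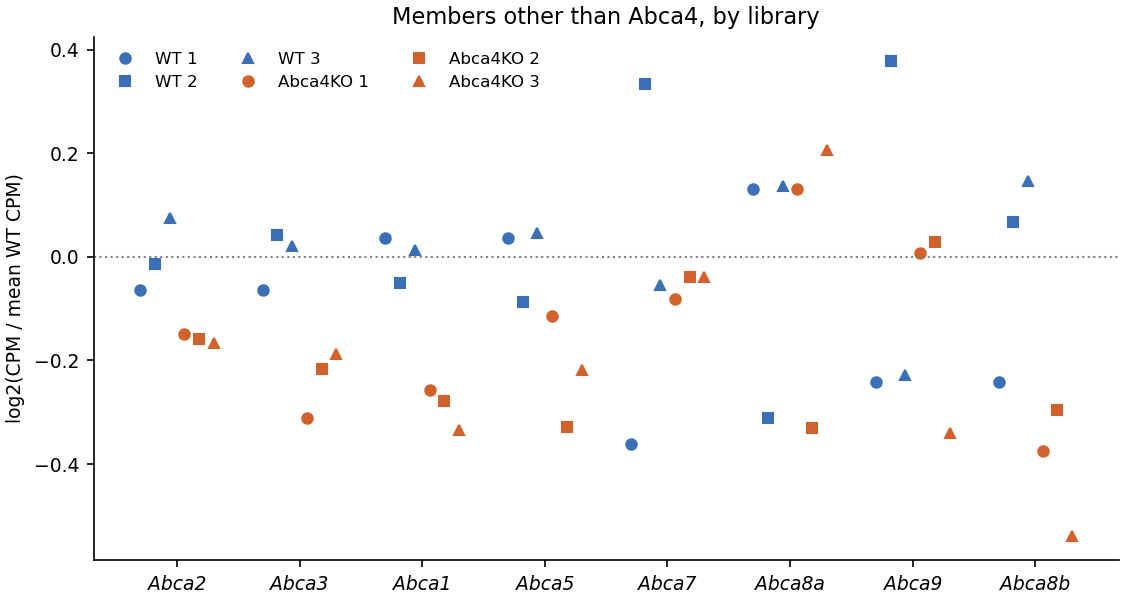
Level of each member other than Abca4 in each library, as the log2 ratio of its CPM to the WT mean (dotted line at 0), with 1 symbol per library, blue for WT and orange for Abca4KO. Abca2, Abca3, Abca1, Abca5 and Abca8b have all 3 Abca4KO libraries below all 3 WT libraries, while Abca7, Abca8a and Abca9 overlap and WT 2 is the highest library for Abca7 and Abca9.

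The members differed in how tightly they were measured. The coefficient of variation over the 3 WT libraries was 1.90% for Abca4, 3.11% for Abca1, 3.88% for Abca3, 4.89% for Abca2 and 5.05% for Abca5. It was 13.7% for Abca8b, 16.8% for Abca8a, 24.3% for Abca7 and 26.0% for Abca9. In Abca4KO it ran from 0.647% for Abca2 to 18.9% for Abca8a. The 5 members above 150 CPM in WT were thus the 5 steadiest there, and their intervals were the narrowest.

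The other ABCA genes were below 3 CPM in every library. Abca14, Abca15 and Abca16 had no count in any library, Abca12 had 2 counts, both in Abca4KO 1, and Abca17 had 22 counts in all. Abca6, the cluster gene between Abca9 and Abca5, held 2.09, 1.45 and 2.61 CPM in WT and 1.17, 1.34 and 1.22 CPM in Abca4KO. Its groups did not overlap, and its log2 fold change was -0.72 (adjusted p 0.75 by edgeR). Abca13 held at most 0.964 CPM in a library (adjusted p 0.903 by edgeR).

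All members are long genes, and fold changes over all tested genes moved with gene length. The deposited lengths of the members ran from 6272 bases (Abca8a) to 12022 bases (Abca4). Over all tested genes, the median log2 fold change was 0.03 under 2000 bases (3564 genes), 0.01 from 2000 to 4000 bases (5317 genes) and -0.01 from 4000 to 6000 bases (3773 genes). It was -0.04 from 6000 to 9000 bases (2774 genes) and -0.08 from 9000 bases on (1912 genes). The share of genes with all Abca4KO libraries below all WT libraries was 4.21% in the shortest class and 13.9% in the longest. Among the 420 genes of at least 6000 bases and at least 150 CPM, the class that holds Abca4 and also Abca1, Abca2, Abca3 and Abca5, that share was 19.5%, 73.6% of the fold changes were negative and the median was -0.09. In this class 19.8% of the genes had an unadjusted p under 0.05 by edgeR, against 7.02% of all tested genes.

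A fit with the trend of level on gene length taken out of each library was chosen after the data were seen. It gave smaller differences for all members but Abca8a, whose log2 fold change was 0.037 against 0.020 in the main fit. Abca1 was at -0.23, Abca3 at -0.19, Abca5 at -0.15, Abca2 at -0.11 and Abca8b at -0.36 on the log2 scale, and the median of the 8 was -0.13. In that fit 5 of the 8 still did not overlap and lay lower, against 6.23% of all tested genes, and 2 of the 8 (Abca1 and Abca3) had an unadjusted p under 0.05. Abca4 was at -4.64 with an adjusted p of 1.34e-05. The part of gene length in the differences of the other members was not tested beyond this fit.

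**Figure D5:**
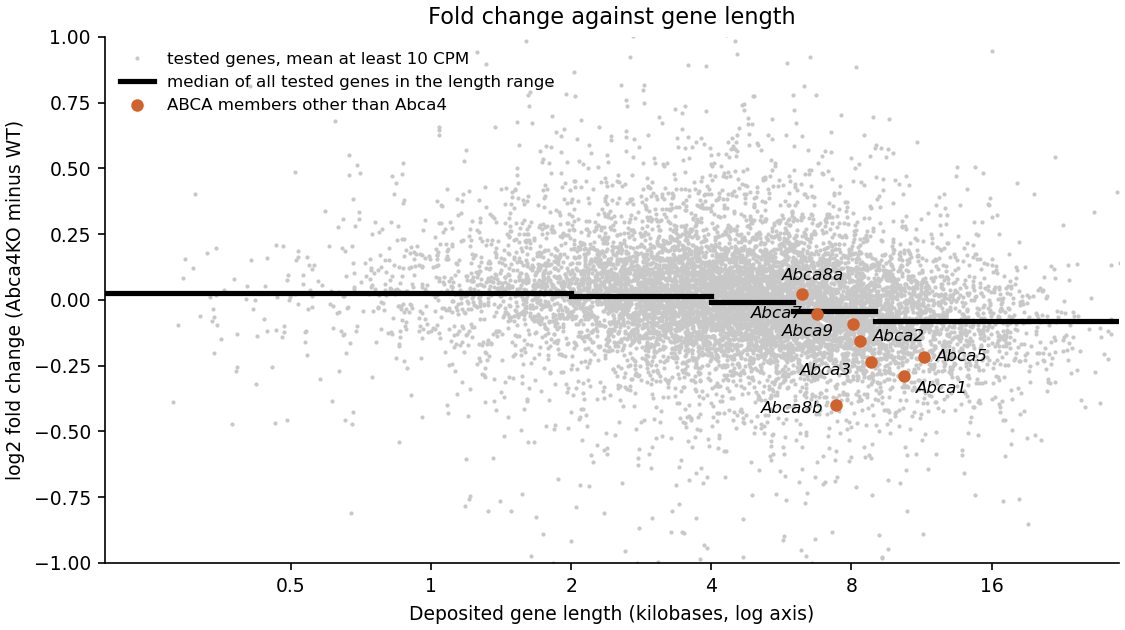
Log2 fold change (Abca4KO minus WT) against deposited gene length (kilobases, log axis) for tested genes with a mean of at least 10 CPM (grey), limited to values between -1 and 1, with black bars at the median of all tested genes in 5 length classes and orange points for the 8 members other than Abca4. The medians run from 0.03 for the shortest to -0.08 for the longest class, and all members but Abca8a lie below the bar of their class.

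The other ABC transporter families were split in direction. Of 37 genes of the ABCB to ABCG families, 31 were tested, and 17 had positive and 14 negative fold changes with a median of 0.02. All Abca4KO libraries were below all WT libraries in 1 of them and above in 2, against 6.85% and 5.93% of all tested genes. EdgeR, DESeq2 and limma-voom called 0 of the 31, with 1, 1 and 7 at an unadjusted p under 0.05. Of all tested genes, 7.02%, 6.42% and 16.9% were under that p by these tools. Of the 13 with at least 6000 bases, 6 were negative, with a median of 0.01 and 1 without overlap and lower. That gene was Abcc1, an exporter of glutathione conjugates, at 207 ± 7.48 CPM in WT and 183 ± 14.6 CPM in Abca4KO (adjusted p 0.718 by edgeR). Abcg2, a multidrug exporter, held 14.1, 15.7 and 12.6 CPM in WT and 17.3, 20.7 and 22.1 CPM in Abca4KO, with a log2 fold change of 0.50 (adjusted p 0.616 by edgeR). Abcg1, which works beside Abca1 in sterol efflux, was at 16.5 ± 4.64 and 22.9 ± 3.96 CPM (log2 fold change 0.47, adjusted p 0.733 by edgeR).

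Genes that work with Abca1 in cholesterol handling were split in direction. Of 22 efflux acceptors and handling genes 20 were tested, with 12 positive and 8 negative fold changes and a median of 0.04. EdgeR called 0 of them, with 3 at an unadjusted p under 0.05, against 7.02% of all tested genes. DESeq2 called Lrp1 and Lrp2 among 110 genes in all, and limma-voom called Lrp2 among 31. Lrp2, the endocytic receptor megalin, was at 330.5 ± 12.4 CPM in WT and 246 ± 13.5 CPM in Abca4KO (log2 fold change -0.43, adjusted p 0.369 by edgeR). Lrp1, a receptor for apolipoprotein E, was at 2228 ± 67.0 and 1715 ± 68.3 CPM (log2 fold change -0.38, adjusted p 0.486 by edgeR). Lipa, the lysosomal acid lipase, was at 164 ± 13.9 and 202 ± 27.5 CPM (adjusted p 0.701 by edgeR). Apoe, an acceptor of sterol in the retina, was at 4848 ± 362 and 5561 ± 1039 CPM (adjusted p 0.841 by edgeR). Apoa1, the classical acceptor for ABCA1, had 18 counts in all libraries together.

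Genes that regulate Abca1 leaned towards lower levels in Abca4KO. Of 17 genes of LXR and RXR regulation, 5 had positive and 12 negative fold changes with a median of -0.09. Without overlap, 5 of the 17 lay lower and 1 higher, against 6.85% and 5.93% of all tested genes. Their sums were 1363 to 1499 CPM in WT and 1288 to 1331 CPM in Abca4KO, also without overlap. EdgeR, DESeq2 and limma-voom called 0 of the 17, with 3, 1 and 3 at an unadjusted p under 0.05. The shares of all tested genes under that p were 7.02%, 6.42% and 16.9%. Nr1h3 and Nr1h2, which encode LXR alpha and LXR beta, had adjusted p-values of 0.962 and 0.923, and the LXR target Mylip had 0.900 by edgeR. The corepressor Ncor1 was at 153 ± 3.07 against 134 ± 9.43 CPM (adjusted p 0.706 by edgeR). Pparg, a nuclear receptor that acts upstream of LXR alpha, was at 9.06 ± 0.898 against 12.2 ± 0.207 CPM (adjusted p 0.679 by edgeR).

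The retinoid cycle is the pathway in which Abca4 acts. Of 20 such genes 19 were tested, with 11 positive and 8 negative fold changes and a median of 0.07. EdgeR, DESeq2 and limma-voom called 0 of the 19, with 3, 4 and 6 at an unadjusted p under 0.05. The shares of all tested genes under that p were 7.02%, 6.42% and 16.9%. Lrat, the acyltransferase that esterifies vitamin A in the RPE, was at 1797 ± 289 CPM in WT and 1388 ± 102 CPM in Abca4KO (log2 fold change -0.37, adjusted p 0.669 by edgeR). Retsat, a retinol saturase, was at 71.8 ± 7.11 and 59.1 ± 0.785 CPM (adjusted p 0.625 by edgeR). Dhrs3, a retinal reductase, was at 210.5 ± 9.74 and 250.1 ± 22.5 CPM (adjusted p 0.679 by edgeR). These 3 genes were picked by their small p-values and did not overlap between the genotypes. Of the 19, 3 lay higher and 3 lower without overlap, against 5.93% and 6.85% of all tested genes.

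Markers of other cell types differed in level between the libraries. The RPE marker sum was 40946 to 52445 CPM in WT and 48181 to 50895 CPM in Abca4KO, and 9 of 18 had positive fold changes. Endothelial markers had positive fold changes in 18 of 18 genes (median 0.62) and summed to 543 to 897 CPM in WT and 916 to 1346 CPM in Abca4KO. Fibroblast and sclera markers had 11 of 15 positive (median 0.20), with sums of 1730 to 2062 and 2073 to 2568 CPM, and mural markers 7 of 9, with sums of 575 to 720 and 768 to 868 CPM. These 3 sums were higher in every Abca4KO library than in any WT library. Higher without overlap were 4 of the 18 endothelial, 4 of the 15 fibroblast and sclera and 2 of the 9 mural markers, against 5.93% of all tested genes. Lower without overlap were 0, 0 and 1 of them, against 6.85%. Of the endothelial markers, 10 had an unadjusted p under 0.05 by edgeR, against 7.02% of all tested genes. Oligodendrocyte and Schwann markers, from a cell type rich in Abca2, had 5 of 10 positive and summed to 788 to 1508 CPM in WT and 699 to 1721 CPM in Abca4KO. Muller glia and astrocyte markers had 7 of 8 negative (median -0.33). Of the 8, 2 lay lower and 1 higher without overlap, against 6.85% and 5.93% of all tested genes. Their sums were 2717 to 3019 CPM in WT and 2287 to 2837 CPM in Abca4KO. Cone markers had 8 of 9 positive (median 0.46), with sums of 44.9 to 63.4 and 49.3 to 96.9 CPM. Melanocyte markers had 4 of 7 positive (median 0.36), with sums of 2778 to 4086 and 3954 to 4779.5 CPM, and these last 3 sums overlapped between the genotypes. EdgeR called 0 of these markers. Among its 110 genes, DESeq2 called Kcnj13 (RPE), Ptprb and Vwf (endothelial), Col3a1 and Lox (fibroblast and sclera) and Rgs5 (mural). It also called Pmp22 (Schwann), Hes1 (Muller glia) and Mlana (melanocyte), and limma-voom called Hes1 among its 31 genes. The part of these cell types in the levels of the members was not tested.

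The neighbours of the members in the genome were compared as well. Within 300 kb of Abca4 there were 8 tested genes, with 6 negative fold changes, a median of -0.13 and 1 without overlap and lower. Over all tested genes, 52.2% were negative, the median was -0.01 and 6.85% lay lower without overlap. The 1 neighbour without overlap was Arhgap29, which encodes a GTPase-activating protein, at 65.8 ± 5.91 CPM in WT and 43.4 ± 11.25 CPM in Abca4KO (log2 fold change -0.60, adjusted p 0.625 by edgeR). Bcar3 had the next smallest p, at 93.1 ± 8.30 and 83.8 ± 7.64 CPM (adjusted p 0.811 by edgeR). Around the chromosome 11 cluster, 3 other genes were tested and all overlapped, with Map2k6, a kinase of the p38 pathway, at 17.2 ± 2.66 and 13.5 ± 1.19 CPM (adjusted p 0.717 by edgeR).

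For each member, the gene most alike over the 6 libraries was taken from 14028 tested genes by the root mean square difference of centred log2 CPM, as a description of likeness in level only. The nearest gene was Sh3d19 for Abca1 (0.0321), Pramef8 for Abca2 (0.0190), Sike1 for Abca3 (0.0278), Etv5 for Abca5 (0.0132), Vac14 for Abca7 (0.0489), Slc25a35 for Abca8a (0.0525), Nrip1 for Abca8b (0.0529) and Btaf1 for Abca9 (0.0490). Abca4 had no gene as near: its nearest, Dner, differed by 0.870, with 4.44 CPM in WT, 0.128 CPM in Abca4KO and no count in Abca4KO 2.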

How the data were processed

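The authors deposited 1 table of unnormalized read counts, with 1 row per gene, 1 column per library and a gene length. The submitters' processing notes name STAR, HTSeq and mm10 and give no versions. The annotation release and the use of strand are not given in the sources used here. Total counts were 17047286 to 19841307 per library, and no pair of libraries agreed within sampling noise (chi-square per degree of freedom at least 12.6). Exons were taken from GENCODE M21, in which 98.3% of the 54409 identifiers found there had identical coordinates.

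From the deposited counts, genes were filtered with filterByExpr (minimum count 10), scaled by TMM and tested in R 4.3.3 with the quasi-likelihood test of edgeR 4.0.16 (2-sided, all 6 libraries), with Benjamini-Hochberg adjustment over 17340 genes and a threshold of 0.05. The test was also tried on counts simulated from the means and dispersions of the main fit. CPM uses scaled library sizes, and RPKM divides CPM by the deposited gene length in kilobases, which for all members except Abca3 equals the union of the exons. Intervals come from the quasi-likelihood standard error. Similar transcripts were searched with blastn 2.17.0. Alternatives were other size factors, other filters, DESeq2 1.42.0, limma-voom 3.58.1 with sample weights, a rod covariate and the replicate number as a block. Others were scaling without the 100 most abundant genes, libraries left out, Abca4 left out and, added after seeing the data, the length trend. Every limma-voom value given here was fitted with sample weights.

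The members and gene lists were chosen with earlier results of these data known. All 9 members were named, other ABCA genes where they had a count, and of each other list up to 3 genes with the smallest p-values. Cell type markers are given by counts and sums, and some listed genes are not reported here. Apoe, Apoa1, Nr1h2, Nr1h3, Mylip, Rpe65 and Ptprc were added after their values were seen. Of genes within 300 kb, up to 2 were named at Abca4 and at the chromosome 11 cluster, and for each member the 1 gene most alike in level.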

Additional observations from a re-analysis of the deposited data

How the results depend on the processing

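Abca4 kept its direction and its call in every alternative, with log2 fold changes from -4.78 to -4.64 and adjusted p-values of at most 0.000681, and 1 of the 9 members was called in each (0 of 8 with Abca4 left out). Abca1, Abca2, Abca3, Abca5 and Abca8b stayed negative and not called in all 18 alternatives, with adjusted p-values from 0.0745 upwards. The number of genes called was 8, and 19 with no filter on low counts, 110 by DESeq2, 31 by limma-voom, 24 with the rod covariate, 190 without WT 2 and Abca4KO 1 together, 3 to 11 with 1 library left out and 9 with the replicate block. Same-numbered libraries had correlations of 0.167, 0.344 and -0.076. WT 1 and WT 2 each correlated best with the Abca4KO library of the same number, while WT 3 correlated best with Abca4KO 1 (0.308). With 3 libraries a genotype these correlations depend on each other, so they do not settle whether the numbers pair the libraries. With the replicate block the fold change of Abca4 was -4.72 (adjusted p 8.61e-05 by edgeR), and no call of a member changed. The count of other members with an unadjusted p under 0.05 was 4, where 7.02% of all tested genes passed. It was 2 with no filter (5.38% of all), 2 without WT 2 and Abca4KO 1 together (16.4%) and 2 with the length trend taken out (6.67%). With 1 library left out it was 2 to 3, where 4.26% to 10.7% of all tested genes passed. The count without overlap and lower was 5, and 4 with library totals alone and with no filter. Its share over all tested genes was not steady. That share was 6.85% in the main fit, 10.5% to 14% with 1 library left out and 24.3% without WT 2 and Abca4KO 1 together. An unchanged count of 5 thus stands against a larger share where libraries were left out.

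Members whose groups overlapped turned direction. Abca7 was at 0.19 by limma-voom, 0.021 with the rod covariate, 0.15 without WT 2 and 0.15 without WT 2 and Abca4KO 1. Abca8a was at -0.016 by limma-voom, -0.036 with the rod covariate and -0.19 without WT 2 and Abca4KO 1, and ran from -0.11 to 0.17 with 1 library left out. Abca9 was at 0.077 without WT 2 and Abca4KO 1 and ran from -0.20 to 0.14 with 1 library left out. The cause was not tested. With 3 mice a genotype, the 95% intervals allow changes from -26.1% to 25.8% for Abca7, from -26.4% to 39.8% for Abca8a and from -32.8% to 31.0% for Abca9. Changes inside these ranges are not excluded, and the intervals are not detection limits.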
